A study of Mus musculus with 3 samples.

Results

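The 32 cell cycle genes described here comprise 13 genes of DNA replication (Mcm2, Mcm3, Mcm4, Mcm5, Mcm6, Mcm7, Pcna, Tyms, Rrm1, Rrm2, Ung, Cdc6 and Pclaf) and 19 genes of mitosis (Top2a, Mki67, Cenpe, Cenpf, Prc1, Tpx2, Hmmr, Nusap1, Smc2, Kif11, Prr11, Ccna2, Ccnb1, Ccnb2, Cdk1, Bub1, Aurkb, Birc5 and Ube2c). They were taken as a named list, and earlier results of these data were known when genes and lists were chosen. All 32 were in the count tables of each of the 3 libraries, which list 28268, 26199 and 26264 genes (29298 different genes in all). The cells were leukocytes selected on the pan-leukocyte antigen CD45 from digested infarcted mouse hearts after dead cells had been removed, with the infarct made by permanent ligation. Both genotypes named in the labels, F7fl/fl CX3CR1Cre and F7fl/fl WT, carry the floxed allele of F7, the gene of coagulation factor VII, and the first adds a Cre recombinase driven by Cx3cr1, a gene active in monocytes and macrophages. Each library pooled sample-tagged cells of both genotypes, and libraries 1, 2 and 3 held 7, 5 and 6 tags, and hearts were collected at several times after infarction. Neither the genotype nor the time of a single tag is given in the sources used here, and neither are the age and sex of the mice, so no genotypes or times were compared. The file headers name library 1 F7_d3, which may hold a time but gives none for a single tag. The tags are said to mark biological replicates, and classes of cells were compared within tags instead.

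A cell that divides first copies its DNA and then separates the copies. Mcm2 to Mcm7 form the ring-shaped helicase that Cdc6 helps to load on the origins of replication, Pcna is the clamp that holds the polymerases on DNA, Pclaf binds that clamp, Rrm1 and Rrm2 are the subunits of ribonucleotide reductase, Tyms makes thymidylate, and Ung removes uracil from DNA. Of the mitosis genes, Ccna2, Ccnb1 and Ccnb2 are cyclins and Cdk1 their kinase, Top2a untangles and Smc2 condenses the chromosomes, Cenpe, Cenpf, Bub1, Aurkb and Birc5 act at the centromere, Kif11, Tpx2, Hmmr, Nusap1 and Prc1 build the spindle, Ube2c marks cyclins for destruction, and Mki67 coats the mitotic chromosomes. In the infarcted heart, macrophages derive from resident cells that divide in place and from blood monocytes that enter the tissue, whereas mature neutrophils do not divide.

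Replication genes are classical targets of E2F transcription factors, and mitosis genes of the complexes that read the cell cycle genes homology region (CHR) beside CCAAT boxes. RefSeq promoters (build GRCm38.p6, 250 bases before to 50 after the start) were found for 28 of the 32 genes. The remaining genes were Mcm4, Tpx2, Ccna2 and Aurkb. The letters searched, on both strands and without overlaps between the motifs being removed, were TTCCCGC or TTGGCGC for E2F, TTTGAA for CHR and CCAAT. An E2F match was found for 7 of 12 replication genes (58.3%) and 3 of 16 mitosis genes (18.8%), against 6.81% of all 32851 promoters of this length. A CHR match was found for 1 replication gene (8.33%), Mcm2, and for 11 mitosis genes (68.8%), against 17.9% of all promoters. CCAAT was found for 9 (75%) and 14 (87.5%), against 37.4% of all promoters. Mcm7 and Prc1 had 2 promoters each and counted when either matched, while the promoters of the background were counted singly. These are matches of letters and not measured binding. The promoters of 4 genes are shown because they hold the contrast between the lists, with the matches in capitals: Mcm6 at chr1:128359656-128359955 on the minus strand and Pclaf at chr9:65890073-65890372 on the plus strand each hold 2 E2F matches and 0 CHR matches. Ccnb2 at chr9:70421505-70421804 on the minus strand holds 2 CHR matches and 0 E2F matches, and Cdk1 at chr10:69352863-69353162 on the minus strand holds both kinds.
Mcm6: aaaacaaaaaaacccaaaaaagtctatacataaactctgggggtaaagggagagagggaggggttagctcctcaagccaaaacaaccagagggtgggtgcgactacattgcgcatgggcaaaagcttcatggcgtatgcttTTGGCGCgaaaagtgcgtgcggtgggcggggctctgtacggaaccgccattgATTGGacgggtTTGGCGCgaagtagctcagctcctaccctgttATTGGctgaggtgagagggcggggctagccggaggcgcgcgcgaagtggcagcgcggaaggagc
Pclaf: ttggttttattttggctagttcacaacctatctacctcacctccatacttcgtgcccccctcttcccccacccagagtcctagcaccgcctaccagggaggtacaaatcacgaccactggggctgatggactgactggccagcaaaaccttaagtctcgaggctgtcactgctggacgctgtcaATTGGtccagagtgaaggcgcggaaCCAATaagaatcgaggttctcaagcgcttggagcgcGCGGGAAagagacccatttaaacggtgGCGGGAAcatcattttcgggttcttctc
Ccnb2: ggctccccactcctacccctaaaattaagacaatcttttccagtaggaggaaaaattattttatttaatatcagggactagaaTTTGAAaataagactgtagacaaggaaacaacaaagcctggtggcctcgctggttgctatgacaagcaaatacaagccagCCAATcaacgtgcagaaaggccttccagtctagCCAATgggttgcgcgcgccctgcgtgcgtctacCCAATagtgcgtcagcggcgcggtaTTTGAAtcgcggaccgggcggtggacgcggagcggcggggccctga
Cdk1: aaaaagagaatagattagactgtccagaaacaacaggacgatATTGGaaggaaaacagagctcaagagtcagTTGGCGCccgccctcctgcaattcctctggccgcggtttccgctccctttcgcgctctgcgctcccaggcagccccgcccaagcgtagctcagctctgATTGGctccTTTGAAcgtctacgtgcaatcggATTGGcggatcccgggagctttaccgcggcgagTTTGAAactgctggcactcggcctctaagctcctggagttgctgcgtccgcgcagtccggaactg

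The 18 tags held 25762 cells, of which 25640 had at least 200 genes and were kept, and the median number of molecules per cell ranged from 11612 to 20282 between tags. Cells were sorted into classes by the first rule met: T cells by at least 2 molecules of Cd3e, Cd3d and Cd3g, B cells by at least 2 of Cd79a, neutrophils by S100a8 and S100a9 at 1% or more of molecules with Csf3r, macrophages by the complement genes C1qa, C1qb and C1qc at 0.1% or more, dendritic cells (DC) by Flt3 and monocytes by at least 2 molecules of Ly6c2. None of these rules uses a cell cycle gene. Those for T cells, B cells, DC and monocytes count molecules whatever the depth of a cell, so that deeper cells can meet them more easily. The part of this in the shares below was not tested. They gave 15023 macrophages, 2427 monocytes, 1371 DC, 488 neutrophils, 1225 T cells and 779 B cells, and left 4327 cells without a class. Of marker genes outside these rules, 7 of 9 for macrophages, 6 of 8 for monocytes, 9 of 9 for DC, 7 of 7 for neutrophils, 8 of 8 for T cells and 7 of 7 for B cells were highest in their own class. Of the monocytes, 2227 were in library 1. Macrophage RNA was also found in the T and B classes: the summed macrophage markers had a median of 8241 CPM (molecules scaled to a common library total) in T cells and 9481 CPM in B cells against 14310 CPM in macrophages, with 0 of the 9 markers at a median of 0, and 77.5% of T cells and 65.7% of B cells also met another class rule. Markers of other cells also reached high values in single tags. Summed fibroblast markers had a median of 356.7 CPM in T cells (highest tag 13880), 162.2 in DC (highest 5157) and 123.3 in B cells (highest 3129). Summed natural killer cell markers had a median of 82.7 CPM in monocytes (highest tag 1161). The part of these cells in the values below was not tested. Libraries shared 4, 3 and 0 cell barcodes.

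Cells with replication or mitosis genes were frequent among macrophages, T cells and DC, infrequent among monocytes and near 0 among neutrophils. To compare cells of unequal depth, each cell was thinned at random to 2000 molecules, and a cell was counted as having replication or mitosis genes when at least 2 different genes of that list had a molecule. The median share over tags with at least 20 cells of the class was 13.3% for replication genes in macrophages (18 tags, 5.71% to 21.5%). The corresponding medians were 20.2% in T cells (18 tags, 12.0% to 47.1%), 11.9% in DC (16 tags, 5.41% to 21.0%), 8.84% in B cells (18 tags, 0 to 23.5%), 4.38% in monocytes (10 tags, 0 to 7.67%) and 0 in neutrophils (9 tags, 0 to 8.51%). For mitosis genes the order was similar, with 8.70% in macrophages (3.67% to 17.3%), 11.4% in T cells (4.44% to 29.4%), 9.33% in DC (1.75% to 17.6%), 5.39% in B cells (0 to 16%), 1.55% in monocytes (0 to 8.33%) and 0 in neutrophils (0 to 3.70%). The ranges of macrophages, T cells, DC and B cells over tags overlapped, and the classes were therefore also set against each other within tags.

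Within tags, macrophages had the higher share of cells with replication genes than monocytes in 10 of 10 tags and than neutrophils in 9 of 9. For mitosis genes the counts were 9 of 10 and 9 of 9. Against T cells the macrophage share was higher in only 3 of 18 tags for replication and 4 of 18 for mitosis, against DC in 11 and 9 of 16, and against B cells in 14 and 15 of 18. T cells had the higher share than DC in 15 of 16 tags for replication and 12 of 16 for mitosis, and than B cells in 15 and 16 of 18. In each of these pairings T cells thus had the higher share in most tags, while neither macrophages nor DC did so against each other for mitosis genes in more than 9 of 16. Neutrophils, which do not divide once mature, served as the class that should lack these genes: 12 of 485 had replication genes (2.47%, 95% exact binomial interval 1.29% to 4.28%) and 4 had mitosis genes (0.825%, 0.225% to 2.10%), at a median depth of 3997 molecules against 20575 in macrophages before thinning. Of the neutrophils 18.4% also met another class rule, and whether their positive cells are stray molecules, doublets or expression was not tested. Monocytes had replication genes in 116 of 2424 cells (4.79%, 3.97% to 5.71%) and mitosis genes in 39 (1.61%, 1.15% to 2.19%). Within tags the monocyte share was above the neutrophil share in 6 of 6 tags for replication (median difference 4.08 percentage points) and in 5 of 6 for mitosis (1.11 points), and for mitosis the pooled intervals overlap. Intervals cover counting error only. Without thinning, and with 3 genes required, the medians were 44.5% and 20.7% in macrophages, 15.5% and 3.93% in monocytes and 2.53% and 0 in neutrophils, for replication and mitosis in turn.

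**Figure D1:**
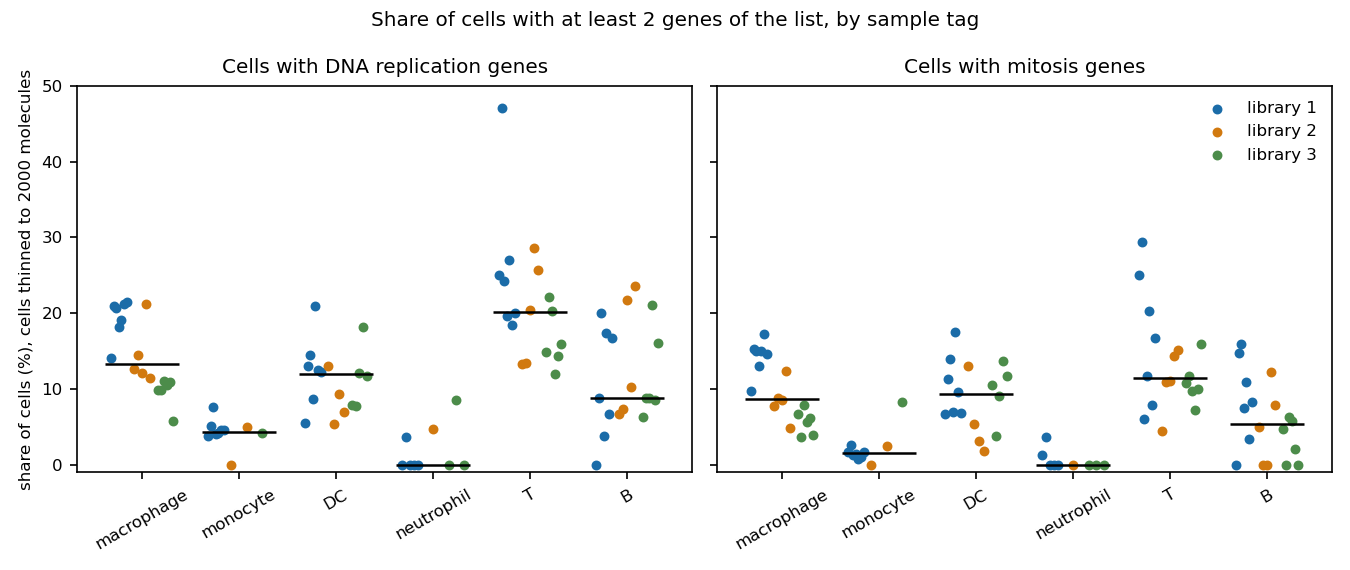
Share of cells, in percent, with at least 2 replication genes (left) or mitosis genes (right) after thinning to 2000 molecules. Each point is a sample tag with at least 20 cells of the class, coloured by library, and each bar is the median over tags. Monocytes and neutrophils lie at the bottom (medians 1.55% and 0 for mitosis), and T cells reach the highest values (47.1% for replication).

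The T cell and B cell classes were split by the C1q rule of macrophages, since so many of them carried macrophage RNA. T cells with little C1q had replication genes in 24.9% (21.7% to 28.3%, 683 cells) and mitosis genes in 14.5% (11.9% to 17.4%). T cells with as much C1q as a macrophage had them in 15.4% (12.4% to 18.7%, 534 cells) and 10.3% (7.85% to 13.2%). Pooled over tags, the T cells with little C1q had the higher share of cells with replication genes, in each of the 3 libraries (31.9% against 18.9%, 22.5% against 16.5% and 19.6% against 13.6%). For mitosis genes the shares were 20.2% against 12.2%, 10.62% against 10.64% and 11.3% against 9.56%, so that library 2 showed no such order. In B cells the mitosis share was 4.45% (2.61% to 7.03%, 382 cells) with little C1q and 7.46% (5.05% to 10.5%, 389 cells) with much. These intervals overlap, and the share was higher with much C1q in each of the 3 libraries (10.8% against 7.64%, 8.0% against 3.03% and 5.53% against 1.59%). The split was not made within tags for either class, and the part of single tags in it was not tested. In library 1 the tag numbered 11 had replication genes in 40 of 85 T cells (47.1%), against 18.4% to 27.0% in the other tags.

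Macrophages made up most of the cells with mitosis genes and most of all cells. They held 1672 of the 2377 cells with mitosis genes (70.3%) and 59.1% of all thinned cells. T cells held 6.48% of the cells with mitosis genes and 4.84% of all thinned cells. The corresponding shares were 5.72% and 5.41% for DC, 1.935% and 3.06% for B cells and 1.64% and 9.63% for monocytes. Cells without a class held 13.7% and 16.1%. Of the 3034 macrophages with either list, 44.9% had replication genes only, 35.1% both and 20.04% mitosis genes only. Among monocytes with either list, 98 of 137 (71.5%) had replication genes only. Macrophages with mitosis genes had more molecules per cell, with a median of 37731 against 25894 in those with replication genes only and 18751 in those with 0 genes of both lists. Marked doublets were 3.77%, 1.76% and 2.17% of these 3 kinds of macrophage, and their part in the shares was not tested.

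The macrophage shares differed between the libraries. Cells with mitosis genes were 9.71% to 17.3% of macrophages in the tags of library 1 (median 15%), 4.87% to 12.4% in library 2 (median 8.60%) and 3.67% to 7.88% in library 3 (median 5.92%), so that libraries 1 and 3 did not overlap. For replication genes the medians were 20.7%, 12.6% and 10.2%, and libraries 1 and 3 did not overlap either. In library 2 the tag numbered 4 stood highest, at 21.3% for replication (18.6% to 24.2%, 865 cells) and 12.4% for mitosis. In library 1 the tag numbered 10 was lowest, at 14.1% and 9.71%. Library 1 was made on other beads and with another pipeline release that kept intronic reads. Its file headers name it F7_d3, which may hold a time. The times and genotypes of single tags are not given, and these differences between the libraries cannot be told apart.

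The levels of the genes in macrophages, as CPM of all molecules of the class in a tag, followed the same pattern. The summed level of the 13 replication genes was 600 to 889 CPM in library 1, 430 to 957 in library 2 and 368 to 456 in library 3. The sum of the 19 mitosis genes was 864 to 1495 CPM, 632 to 917 CPM and 420 to 600 CPM, and again the tags of libraries 1 and 3 were apart. Top2a, whose product relaxes entangled DNA, was at 65.6 CPM in the lowest tag, at a median of 130.4 and at 266.9 in the highest. Its 7 values in library 1 lay between 151.5 and 266.9 CPM and its 6 values in library 3 between 65.6 and 88.1. The clamp-binding gene Pclaf was at 27.5 to 42.9 CPM in library 3 and at 76.1 to 136.6 in library 1, and the helicase gene Mcm5 at 17.9 to 31.4 and at 47.1 to 76.0. In library 2 the tag numbered 4 had 123.1 CPM of Pclaf and 85.6 CPM of Mcm5, the highest Mcm5 value of all 18 tags. A higher summed level can come from more cells with these genes or from more molecules per such cell, and the sums do not tell these apart.

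**Figure D2:**
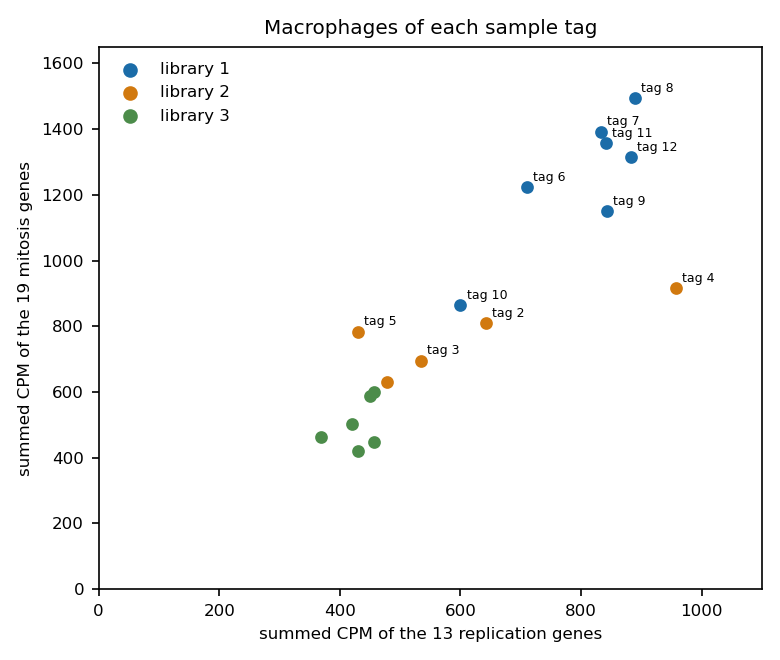
Summed CPM of the 13 replication genes (horizontal) and the 19 mitosis genes (vertical) in the macrophages of each of the 18 sample tags, coloured by library, with the tag number beside some points. Library 3 lies lowest (420 to 600 CPM of mitosis genes), library 1 highest (864 to 1495 CPM), and tag 4 of library 2 has the highest replication sum (957 CPM).

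Across the classes, T cells had the highest median CPM for 12 of the 13 replication genes, and Pclaf was highest in DC. These medians are over tags of all libraries, and the order differed between libraries. T cells led for all 13 replication genes in library 2 and for 10 in library 3. In library 1 they led for 8, macrophages for Mcm5 (69.3 against 60.0 CPM in T cells), Pcna (250.2 against 231.8), Rrm1 (70.1 against 50.6) and Pclaf (113.1 against 71.6), and DC for Tyms. Over all tags, the mitosis genes were divided: 10 of 19 were highest in macrophages (Prc1, Hmmr, Smc2, Prr11, Ccna2, Ccnb1, Ccnb2, Cdk1, Aurkb and Ube2c), 5 in T cells (Top2a, Cenpf, Nusap1, Kif11 and Birc5) and 4 in DC (Mki67, Cenpe, Tpx2 and Bub1). This order, too, differed between libraries. Macrophages led for 17 of the 19 mitosis genes in library 1 and for 11 in library 2, where T cells led for 7. In library 3 the single tag of monocytes, with 24 cells, was highest for 18, and with monocytes left out T cells led for 13 and DC for 6. Neutrophils were lowest for all 32 genes, with a median of 0 for 8 replication and 16 mitosis genes. Levels were compared within a gene and not between genes. The ranges over tags overlapped widely. Birc5, the survivin gene of the chromosomal passenger complex, had medians of 53.1 CPM in T cells (16.3 to 112.4), 52.0 in macrophages (26.2 to 78.8), 48.3 in DC (5.31 to 128.3), 18.8 in B cells (0 to 96.4), 7.13 in monocytes (0 to 69.4) and 0 in each of the 9 tags of neutrophils. Apart from neutrophils, the ranges of these classes overlap. Rrm2, the regulated subunit of ribonucleotide reductase, stood at 42.3 CPM in T cells (8.61 to 88.1), 27.6 in macrophages (14.4 to 64.6), 16.6 in DC (0 to 128.1), 5.98 in B cells (0 to 96.4), 4.71 in monocytes (0.525 to 13.1) and 0 in neutrophils (0 to 16.8).

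**Figure D3:**
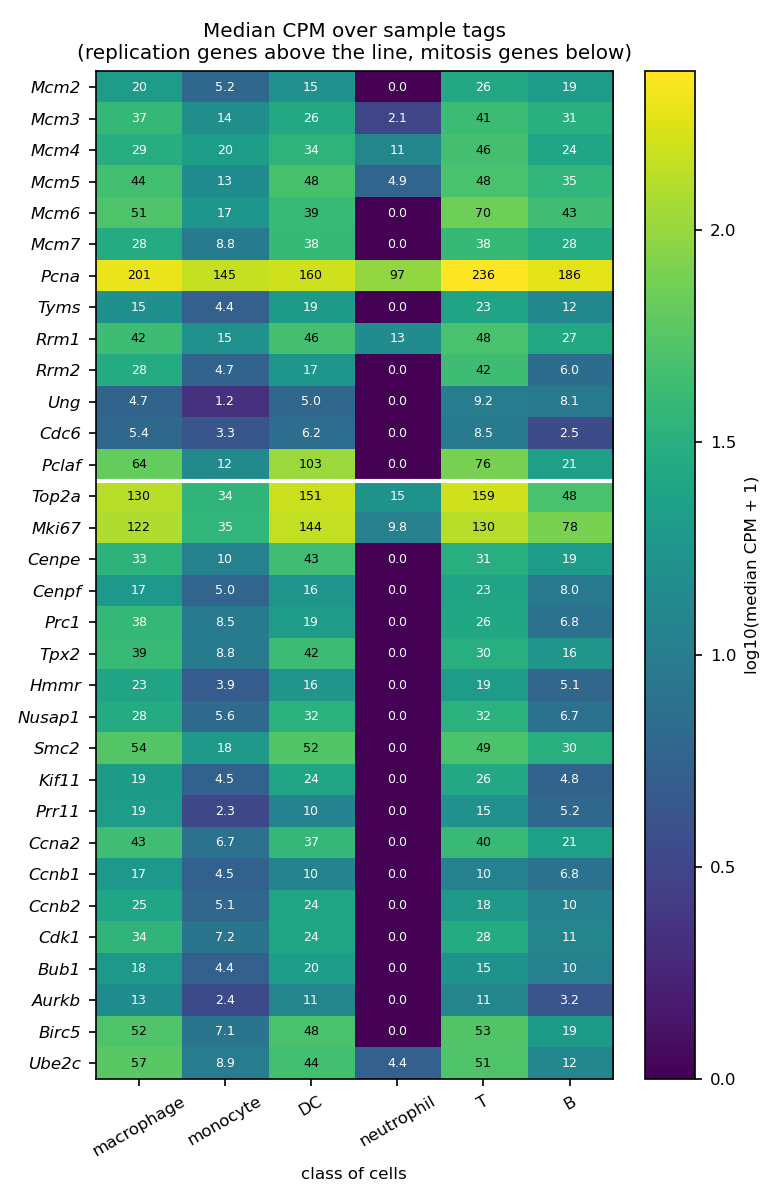
Median CPM over sample tags of each gene (rows, replication genes above the white line) in each class of cells (columns), with the colour on a log10(CPM + 1) scale. Neutrophils are lowest in every row, and Pcna is the gene with the least contrast (96.6 CPM in neutrophils and 236 CPM in T cells).

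The comparison of macrophages with monocytes sets C1q-rich macrophages beside Ly6c2-positive cells of the same tags. All 32 genes were higher in macrophages in 10 tags (edgeR quasi-likelihood test on molecules summed per tag and class, adjusted p under 0.05 over all genes), where 32% of the 11223 genes tested were higher and 31.4% lower. The median log2 difference was 2.00 over the replication genes and 2.54 over the mitosis genes, against 0.01 over all genes. The helicase gene Mcm5 was at 30.7 to 85.6 CPM in macrophages and 8.09 to 16.05 in monocytes, with no overlap (log2 difference 2.34 ± 0.13 (SE), 5.07-fold, adjusted p = 2.18e-09). Rrm2 did not overlap either, at 24.9 to 64.6 against 0.525 to 13.1 CPM (log2 difference 2.73 ± 0.29, adjusted p = 1.23e-06). Pclaf had the largest difference of the replication genes, from 12.3 CPM in monocytes (median) to 108.5 in macrophages (log2 difference 2.80 ± 0.28), and Pcna the smallest of all, from 145.2 to 249.6 CPM (log2 difference 0.64 ± 0.08).

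Among the mitosis genes, Prr11, a gene of mitotic progression, changed most, from a median of 2.26 CPM in monocytes to 22.9 in macrophages (log2 difference 3.01 ± 0.35, adjusted p = 2.56e-06). Top2a was at 86.1 to 266.9 CPM in macrophages and 6.18 to 171.3 in monocytes (log2 difference 2.33 ± 0.26). The proliferation marker Mki67 was at 89.0 to 234.6 against 6.18 to 163.2 CPM (2.30 ± 0.25). The highest monocyte values were those of the tag numbered 12 of library 3, with 24 monocytes, in which the summed mitosis level of monocytes was 1195 CPM against 162 to 227 in library 1. Cdk1, the mitotic kinase, had medians of 50.2 and 7.24 CPM (log2 difference 2.58 ± 0.22), its cyclin Ccnb1 24.9 and 4.46 CPM (2.35 ± 0.34), Birc5 64.9 and 7.13 CPM (2.72 ± 0.27) and Ube2c 74.3 and 8.93 CPM (2.60 ± 0.36). Each of these was higher in macrophages in 9 of 10 tags. The number of calls depends on library 1, which held 7 of the 10 tags. Without it, 7 of the 32 genes were called, in 3 tags, and the median log2 difference was 1.28. Library 2 alone, with 2 tags, called 26.

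**Figure D4:**
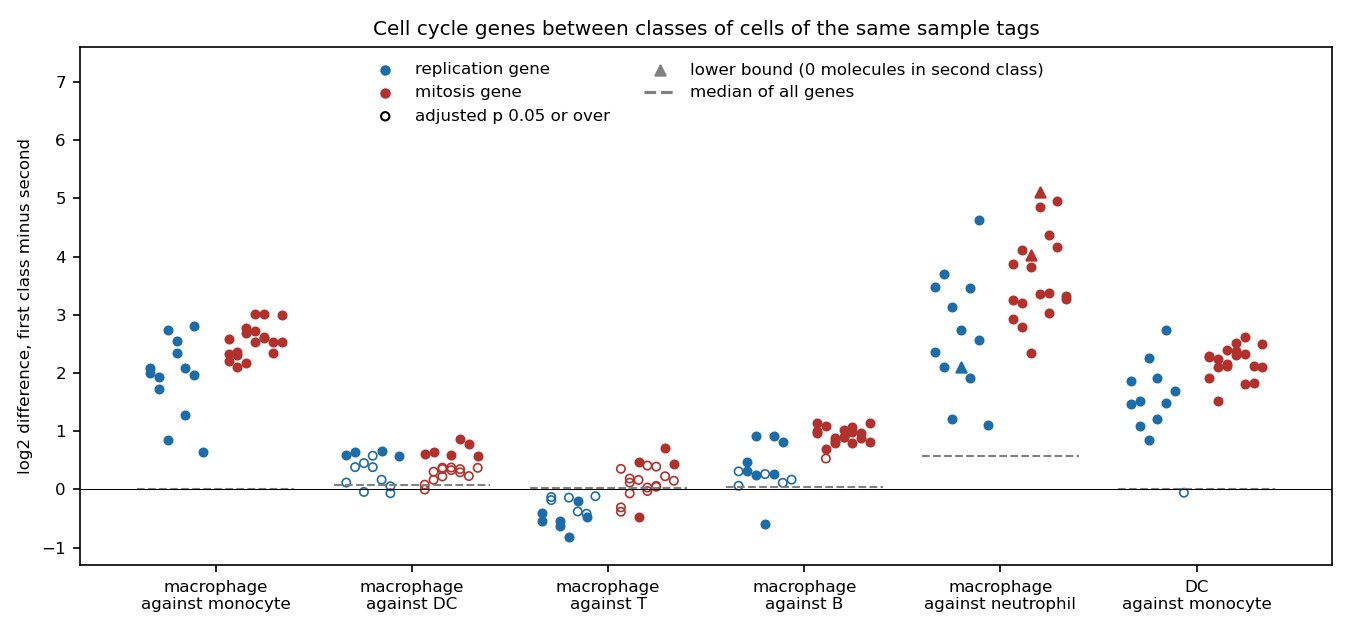
Log2 difference of each gene between classes of cells of the same tags, first class minus second. Filled points passed an adjusted p of 0.05, open points did not, triangles are lower bounds where the second class had 0 molecules, and dashed lines are the median of all genes. All genes lie above the dashed line in the comparisons of macrophages with monocytes and neutrophils, and the differences from DC and T cells lie between -0.81 and 0.87.

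Of 40 other replication genes, 37 were higher and 0 lower in macrophages than in monocytes (median log2 difference 1.595). The largest was the replication initiator Mcm10 (10.7 against 0.813 CPM, 2.86 ± 0.25), and the smallest the mismatch repair gene Msh6 (10.25 against 10.27 CPM, -0.05 ± 0.15). Of 50 other mitosis genes, 46 were higher and 1 lower (median 2.15). The kinetochore gene Nuf2 had the largest difference (19.03 against 1.94 CPM, 3.02 ± 0.21) and Cenpa, the centromeric histone, was lower (75.7 against 120.5 CPM, -0.71 ± 0.06, adjusted p = 8.87e-08). Of 34 tested genes of cell cycle control, 18 were higher and 14 lower, from Btg1, an antiproliferative gene (417.7 against 935.0 CPM, -1.29 ± 0.07), to Mybl2, a subunit of the complex at the CHR (4.82 against 0.266 CPM, 2.42 ± 0.34).

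DC were set against monocytes of the same tags in the same way. Of 31 genes tested (Ung was too low), 30 were higher in DC than in monocytes in 10 tags, where 24.6% of 9628 genes were higher and 24.5% lower. The median log2 difference was 1.5 over the replication genes and 2.24 over the mitosis genes, against 0.01 over all genes. Pclaf had the largest, at 115.2 against 12.3 CPM (2.74 ± 0.29, adjusted p = 9.62e-07), followed among the mitosis genes by Ccna2, the cyclin of S phase and G2, at 53.0 against 6.74 CPM (2.63 ± 0.36). Smc2 had the smallest difference of the mitosis genes, at 67.7 against 17.8 CPM (1.52 ± 0.24). Pcna did not pass, at 153.2 against 145.2 CPM (-0.06 ± 0.11, adjusted p = 0.687). Mcm5 was at 49.2 against 13.2 CPM (1.91 ± 0.21), Top2a at 193.4 against 34.5 (2.28 ± 0.29), Mki67 at 181.4 against 35.2 (2.24 ± 0.28) and Birc5 at 53.3 against 7.13 (2.37 ± 0.28). Without library 1 only 14 of the genes could be tested and 1 was called. Of the other genes, 25 of 31 tested replication genes were higher and 1 lower, from Cdt1 (log2 difference -0.34) to Gins3 (2.40), and 38 of 41 mitosis genes higher and 1 lower, from Pttg1 (-0.35) to Cdc20 (2.99). The comparison shares its monocytes with the one before.

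Against neutrophils all 32 genes were higher in macrophages in 9 tags, where 39.9% of 10394 genes were higher and 19.8% lower, and the median log2 difference of all genes was 0.58 (0.74 with the DESeq2 size factors, a shift of 0.17). The medians were 2.73 over the replication genes, or 2.56 with the gene at 0 set to its bound, and 3.38 over the mitosis genes. Birc5, Kif11 and Ung had 0 molecules in all neutrophils of these tags. Set against a floor of 3 molecules over that group, Birc5 was at least 34.6-fold, the spindle motor gene Kif11 at least 16.4-fold and Ung at least 4.27-fold higher in macrophages. Ccnb1 had 1 molecule in neutrophils, a pooled ratio of 39.5 with a counting interval of 7.09 to 1560. Pclaf was at 28.6 to 125.2 CPM in macrophages and 0 to 5.69 in neutrophils (log2 difference 4.63 ± 0.43). Top2a was at 65.6 to 245.4 against 0 to 34.8 CPM (3.26 ± 0.30), and Mki67 at 81.2 to 214.5 against 0 to 34.8 (3.19 ± 0.33), both without overlap. Pcna had the smallest difference, at 166.1 to 278.4 against 56.9 to 142.9 CPM (1.098 ± 0.19, adjusted p = 9.58e-06). Of the other genes, 29 of 36 tested replication genes were higher and 0 lower, and 38 of 49 mitosis genes were higher and 4 lower, with Cks2 lowest (-2.36). Library 3 alone, with 3 tags, called 13 genes.

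Macrophages and DC were closer. In 16 tags 10 of the 32 genes were higher in macrophages and 0 lower, a share of genes below the 35.4% of all 10916 genes that were higher (28.4% were lower). The 10 were Pcna, Mcm2, Mcm3, Mcm6, Hmmr, Prr11, Cdk1, Smc2, Ccnb1 and Prc1, with log2 differences of 0.57 to 0.87. Prc1, which bundles the spindle midzone, differed most, at a median of 37.5 against 19.3 CPM (0.87 ± 0.30, adjusted p = 0.0155). Mcm6 was at 54.2 against 39.4 CPM (0.66 ± 0.15, higher in 14 of 16 tags) and Pcna at 212.3 against 159.9 (0.57 ± 0.10). The other 9 replication genes did not pass, with differences of -0.07 (Pclaf, 76.2 against 103.0 CPM) to 0.58, and nor did the other 13 mitosis genes, with -0.00 (Nusap1, 28.7 against 31.6 CPM) to 0.38. Top2a was at 141.2 against 151.3 CPM (0.08 ± 0.29) and Mki67 at 127.4 against 143.8 (0.16 ± 0.25). The DC values spread widely, Top2a from 2.65 to 410.2 CPM. Of the other genes, 13 of 40 replication genes were higher and 2 lower, from Gins3 (-1.56) to Ccne2 (1.44), and 12 of 50 mitosis genes higher and 4 lower, from H2afz (-1.58) to Anln (0.94). Without library 1, 0 of the 32 passed in 9 tags (edgeR), whereas library 1 alone called 18, library 2 alone 2 and library 3 alone 0, with a median difference of -0.31.

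In 18 tags 7 of 13 replication genes were lower in macrophages than in T cells and 0 higher, while of the mitosis genes 3 were higher and 1 lower, where 33.8% of 10889 genes were higher and 31.9% lower. The medians were -0.41 and 0.15, against 0.02 over all genes. The 7 were Ung, Mcm4, Tyms, Rrm2, Mcm7, Mcm2 and Mcm6, with log2 differences of -0.81 to -0.20. Ung differed most, at a median of 4.72 against 9.17 CPM (-0.81 ± 0.23, adjusted p = 0.00361), and Mcm4 in most tags, at 29.0 against 46.2 CPM (-0.64 ± 0.12, higher in macrophages in 2 of 18 tags). Rrm2 was at 27.6 against 42.3 CPM (-0.54 ± 0.19). Pclaf, Cdc6, Rrm1, Mcm5, Mcm3 and Pcna did not pass (-0.42 to -0.12). Kif11 was lower in macrophages (18.8 against 26.2 CPM, -0.48 ± 0.16). Ccnb1 (17.4 against 10 CPM, 0.71 ± 0.20, adjusted p = 0.00337), Cenpe (33.2 against 30.7 CPM, 0.47 ± 0.20) and Hmmr (23.3 against 19.3 CPM, 0.43 ± 0.19) were higher. The other 15 mitosis genes lay between -0.38 and 0.41, among them Top2a (-0.31 ± 0.20), Mki67 (-0.07 ± 0.17), Birc5 (-0.03 ± 0.17), Cdk1 (0.35 ± 0.19) and Ube2c (0.06 ± 0.20). Of the other genes, 1 of 40 replication genes was higher and 16 lower, from Rpa2 (-1.28) to Gins1 (0.88), and 5 of 50 mitosis genes higher and 13 lower, from Hmgb2 (-1.42) to Anln (1.01).

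The T class carried macrophage RNA, as given above, and its part in these values was not tested separately. Restricted to cells that met 1 class rule, which left 4 tags, 17 of the 32 genes were lower in macrophages and 0 higher, with a median log2 difference of -0.85. There Ccnb1 stood at -0.36 ± 0.41 and Ube2c at -1.20 ± 0.27, both on the other side of 0. The libraries differed too: library 1 alone gave 4 higher and 1 lower, library 2 alone 2 and 2, and library 3 alone 0 higher and 14 lower. Without library 3, 6 were higher and 1 lower.

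Against B cells 25 genes were higher in macrophages and 1 lower in 18 tags, where 25.8% of 10626 genes were higher and 23.6% lower. The median log2 difference was 0.27 over the replication genes and 0.90 over the mitosis genes, against 0.03 over all genes. Of the mitosis genes 18 of 19 passed, with Hmmr highest, a spindle gene (23.3 against 5.10 CPM, 1.15 ± 0.35, adjusted p = 0.00866) and then Top2a (130.4 against 48.5 CPM, 1.15 ± 0.30, higher in 15 of 18 tags). Mki67 was at 122.0 against 77.7 CPM (1.09 ± 0.23), Birc5 at 52.0 against 18.8 (1.03 ± 0.30), Cdk1 at 34.5 against 11.1 (0.96 ± 0.31) and Ccnb1 at 17.4 against 6.77 (0.96 ± 0.29). Bub1 did not pass (0.53 ± 0.30). Of the replication genes Cdc6 rose most (5.36 against 2.46 CPM, 0.91 ± 0.28), and Rrm2 (0.91 ± 0.35) and Pclaf (0.82 ± 0.31) also passed. Ung was lower (4.72 against 8.08 CPM, -0.60 ± 0.23, adjusted p = 0.0333), and Mcm2, Mcm7, Pcna, Mcm5 and Tyms did not pass (0.06 to 0.31). B cells varied widely between tags, Top2a from 0 to 289.7 CPM. Of the other genes, 8 of 38 tested replication genes were higher and 4 lower, from Pold1 (-0.86) to Mcm10 (0.97), and 34 of 49 mitosis genes higher and 1 lower, from Cenpa (-0.44) to Sgo1 (1.79). Without library 1, 5 genes were higher and 0 lower. Without library 2 the count was 13, and with at least 50 cells per tag and class, which left 6 tags, it was 3. Cells of 1 class rule gave 22, with a median log2 difference of 3.11 in 5 tags.

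Within macrophages the genes were described cell by cell. In macrophages with at least 2 mitosis genes after thinning (1672 cells), in those with replication genes only (1362) and in those with 0 genes of both lists (6777), the share of cells with a molecule before thinning was compared as a description, since these genes chose the cells. The first pair of kinds stood furthest apart, among the replication genes, in Pclaf, Rrm2 and Tyms: Rrm2 was detected in 62.1% of cells with mitosis genes and 18.8% of those with replication genes only, Pclaf in 82.5% and 22.2%, and Tyms in 65.4% and 25.5%. Rrm1, the partner of Rrm2, was detected in 83.6% and 59.8%. Of the helicase genes, Mcm7 was detected in 68.2% and 55.1%, Mcm5 in 75% and 66.1% and Mcm4 in 65.4% and 61.2%, while Mcm2 (59.9% and 56.8%), Mcm3 (71.4% and 70.8%) and Mcm6 (74.6% and 75.3%) were closer. Detection was not adjusted for depth, a median of 37731 against 25894 molecules per cell. In CPM, Mcm7 (103.5 against 75.3) and Mcm5 (176.2 against 147.4) were higher in cells with mitosis genes. Mcm4 (83.2 against 86.6), Mcm2 (61.3 against 69.7), Mcm3 (104.9 against 108.2) and Mcm6 (164.2 against 171.9) were lower there. Ung was detected in 23.2% and 28.3%. Of the mitosis genes, Hmmr (68.7% and 3.74%), Cenpf (63.9% and 4.19%) and Prr11 (63.4% and 3.89%) were seldom detected in cells with replication genes only, while Smc2 (88.5% and 52.1%), Mki67 (92.9% and 37.2%), Top2a (86.8% and 37.2%) and Cdk1 (78.1% and 28.1%) were found in both. Pcna was detected in 73.2% of the cells with 0 genes of both lists.

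The genes outside the 32 were compared between the macrophages with mitosis genes and those with 0 genes of both lists, in the 17 tags with 20 cells of each. The cell cycle genes themselves were not tested, since they chose the cells. Outside them 2927 genes were higher and 4047 lower, 26.8% and 37.0% of 10926 tested, with a median log2 difference of -0.07. All 40 other replication genes were higher (median 2.79), from the replisome gene Gins4 (47.4 against 21.7 CPM, 1.02 ± 0.07) to the thymidine kinase gene Tk1 (126.6 against 1.95 CPM, 5.91 ± 0.09). Of 50 other mitosis genes 49 were higher (median 4.78), with the mitotic kinase gene Pbk highest (78.7 against 0.245 CPM, 7.84 ± 0.12). The exception was Pttg1, the securin gene, at 51.6 against 53.7 CPM (-0.04 ± 0.08, adjusted p = 0.694). Depth differed between these kinds of cell, as given above, and its part in the differences was not tested.

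Of 35 tested genes of cell cycle control, 20 were higher and 12 lower (median 0.40). E2f7, an E2F repressor, was highest (23.3 against 0.257 CPM, 6.34 ± 0.15), and Btg2, an antiproliferative gene, lowest (96.2 against 190.4 CPM, -0.94 ± 0.06, lower in 17 of 17 tags). The following were singled out after their values were seen: Foxm1, the activator of mitosis genes, was at 38.8 against 0.798 CPM (5.60 ± 0.12), E2f1 at 64.9 against 21.7 (1.52 ± 0.07) and the cyclin D gene Ccnd1 at 135.5 against 82.3 (0.75 ± 0.10). The cyclin-dependent kinase inhibitor gene Cdkn1a was at 425.7 against 567.9 CPM (-0.56 ± 0.08), and Maf (-0.55 ± 0.06), a transcription factor, was lower in 17 of 17 tags.

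Of 42 genes of macrophage states, 0 were higher and 28 lower (median -0.54), where 26.8% of all genes tested outside the 32 were higher and 37.0% lower. Ly6c2, the marker of inflammatory monocytes, was lowest (10.8 against 32.1 CPM, -2.77 ± 0.37, adjusted p = 8.52e-07), and Cx3cr1, the fractalkine receptor gene, had the highest value without passing (222.2 against 168.4 CPM, 0.27 ± 0.14, adjusted p = 0.0943). The chemokine receptor gene Ccr2 (330.1 against 414.1 CPM, -0.89 ± 0.17) and the growth factor receptor gene Csf1r (758.5 against 1079 CPM, -0.43 ± 0.04), also singled out after their values were seen, were lower. For Ly6c2 and Ccr2 the medians over tags differ by less than the fit gives, and the part of single tags in this was not tested. A level in CPM is relative to all molecules of the cells, and the cells with mitosis genes had more molecules each.

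Outside all lists, the 10 genes with the largest rise in every tag were Aspm, Cep55, Dlgap5, Sgo2a, Melk, Cdkn3, Cit, Stil, Knstrn and Cip2a, with log2 differences of 6.84 to 4.65. Aspm, a spindle pole gene, was at 65.4 against 0.372 CPM (6.84 ± 0.15, adjusted p = 1.54e-21), and Cep55, of the midbody, at 69.3 against 0.643 (6.17 ± 0.18). The 10 with the largest fall were Tcp11l2, Mxd4, Fbxo32, Slfn5, Ypel3, Csf3r, Crebrf, Selenop, Pla2g7 and Clec4a1, at -1.46 to -1.08. Mxd4, an antagonist of Myc, was at 34.1 against 86.3 CPM (-1.41 ± 0.06, adjusted p = 2.56e-15), and Selenop, which encodes a selenium transport protein, at 1924 against 3684 CPM (-1.12 ± 0.10).

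**Figure D5:**
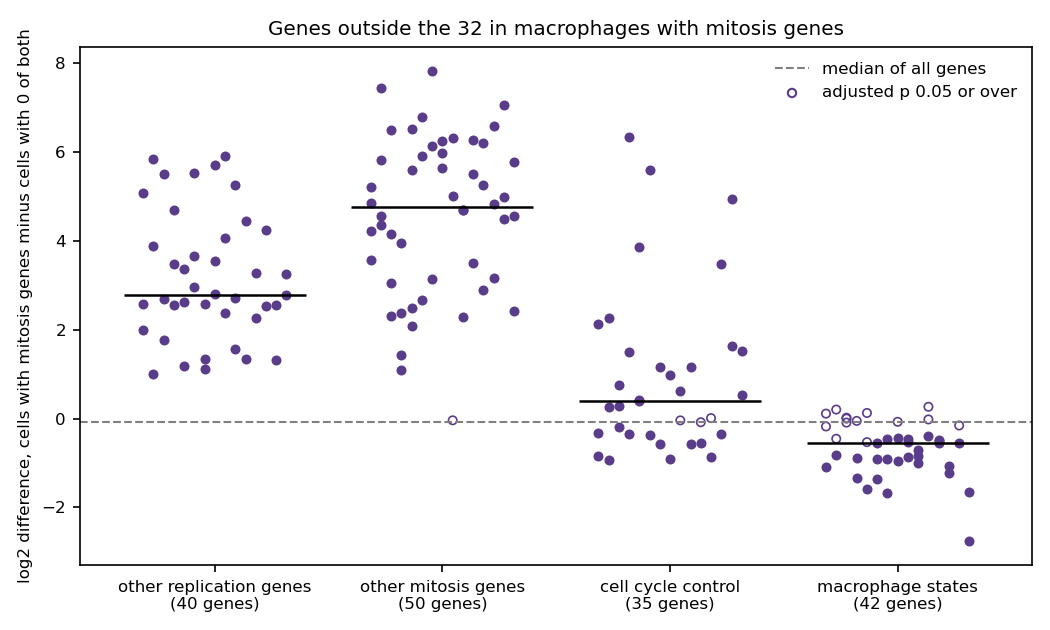
Log2 difference of genes outside the 32 between macrophages with mitosis genes and macrophages with 0 genes of both lists, by list. Filled points passed an adjusted p of 0.05, bars are list medians and the dashed line is the median of all genes. The replication and mitosis lists lie above 1.0 apart from Pttg1, control genes lie on both sides, and macrophage state genes lie at or below 0.27.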

How the data were processed

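Single cells of 3 multiplexed BD Rhapsody libraries, 18 sample-tag tables in all, were analysed. The deposited values are whole-number counts of molecules per gene and cell, corrected by the authors with the RSEC step of the BD Rhapsody WTA Analysis Pipeline, version 2.0b1 for library 1 and 1.10 for libraries 2 and 3, against GRCm38 and the GENCODE M19 annotation, as the file headers give it. Library 1 was made on enhanced beads with intronic reads kept, whereas original beads were used for the other libraries, again per the file headers. Library sizes were 349827525, 88942652 and 93812439 molecules, and 10152522 to 62344127 molecules per tag. No 2 tables were identical (0 of 153 pairs).

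Cells with under 200 genes (122) were left out. Scrublet doublet scores (run in scanpy 1.11.5) called 0, 1 and 1 cells at the automatic threshold, so that caller did not work, and removal of the top-scoring 2% (512 cells) was tried only as an alternative. For shares, cells were thinned at random to 2000 molecules, and shallower cells were left out. Intervals are exact binomial (Clopper-Pearson, 95%).

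For levels, the molecules of a class were added up within each tag that held at least 20 of its cells, and the sums were tested with edgeR 4.0.16 in R 4.3.3 (quasi-likelihood F test, TMM factors, filterByExpr, sample tag as block, Benjamini-Hochberg over all genes tested, threshold 0.05). The tag is a block because both sums of a tag come from 1 tagged sample. SE is the log2 difference divided by the square root of F. Tags with the same number in different libraries were not paired. Where a class had 0 molecules, a bound was set against 3 counts over the group. The edgeR fit was checked on simulated data.

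The genes given in full were Mcm5, Pcna, Rrm2, Pclaf, Top2a, Mki67, Ccnb1, Cdk1, Birc5 and Ube2c, the highest and lowest of a comparison, and those that did not pass or went against the majority. Where many did not pass, they are given by name or range, and where values of a gene repeat the pattern of the others only some are printed. For genes outside the lists, the 10 largest changes in each direction were taken among those with an adjusted p under 0.05, a mean of at least 50 CPM in one sum and the same direction in every tag. The genes and lists were chosen with earlier results of these data known. Alternatives were DESeq2 1.42.0 as test or size factors, no filter on low counts, no block, each library left out, other cell minimums, depths and gene minimums, cells of 1 class rule only, and, added after the data were seen, each library alone.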

Additional observations from a re-analysis of the deposited data

Results flagged for a closer look

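Shares of cells were searched for single tags that stood apart from the other tags of their library, in 28 groups of 4 to 7 tags. A tag was picked out where its gap to the nearest other tag was a large part of the group's range (Dixon's test, 95%). For normally distributed values chance alone gives this in about 1 of 20 groups, and shares made of few cells need not follow that rate. In all, 4 tags were found, all for replication genes after thinning. In T cells of library 1, the tag numbered 11 had replication genes in 47.1% (40 of 85 cells), and the other tags in 18.4% to 27.0%. In macrophages of library 3, the tag numbered 9 had them in 5.71% (25 of 438 cells), and the others in 9.83% to 11.0%. In monocytes of library 1, the tag numbered 12 had them in 7.67% (24 of 313 cells), and the others in 3.86% to 5.11%. In neutrophils of the same library, that tag had them in 3.70%, which is 1 of 27 cells, and the others in 0. With all others at 0, any single positive cell meets the rule, so nothing is concluded from this flag.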

How the results depend on the processing

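Against monocytes and neutrophils, 0 of the 32 genes were lower in macrophages in every alternative run, and the number higher depended on the libraries. With each library left out in turn, the number of the 32 genes higher in macrophages ranged from 7 to 32 against monocytes, 23 to 32 against neutrophils, 0 to 14 against DC, 1 to 6 against T cells (1 to 13 lower) and 5 to 23 against B cells (0 lower), and 1 to 30 were higher in DC than in monocytes. Each lowest count was without library 1, apart from T cells, where 1 was higher without library 1 or 2 and 1 lower without library 3. For genes outside the 32 in macrophages with mitosis genes, the ranges were 2351 to 3201 higher and 2790 to 3469 lower. Without the replicate block, that is without the sample tag in the fit, 4 genes were higher against DC, 1 higher and 5 lower against T cells, and 5 higher and 0 lower against B cells, and the other counts of calls stayed within 1.5 times. Cells of 1 class rule gave 16 against DC, 0 higher and 17 lower against T cells, with Ccnb1 at -0.36 and Ube2c at -1.20, and 0 lower against B cells. With at least 50 cells the counts were 17 against DC, 1 higher and 15 lower against T cells, and 3 higher and 0 lower against B cells. Against T cells, DESeq2 called 5 higher, no filter 6 higher and 2 lower, and leaving out doublets 1 higher. No filter gave 0 lower against B cells. Library 1 alone gave 18 against DC, 1 lower against T cells and 0 lower against B cells. Library 2 alone gave 2 against DC, 2 lower against T cells, 1 higher and 0 lower against B cells, 0 for DC against monocytes (2 genes tested, in 2 tags), and 1940 lower genes in macrophages with mitosis genes. Library 3 alone gave 0 against DC, 0 higher and 14 lower against T cells, 2 higher and 0 lower against B cells, 13 against neutrophils, and 1481 higher and 1370 lower genes in macrophages with mitosis genes. Library 3 alone could not be run against monocytes, nor library 2 alone against neutrophils, with 1 tag each. The cause of these changes was not tested, beyond the fewer tags.

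Shares with replication genes moved with the depth and the number of genes required, by construction. Thinned to 1000 molecules the medians were 7.53% in macrophages, 2.01% in monocytes, 6.74% in DC and 9.12% in T cells. Thinned to 4000 they were 24.3%, 10.4%, 20.95% and 38.5%, with 6.90% in neutrophils (3 tags only) and 25.0% in B cells. With 3 genes required after thinning they were 6.845% in macrophages, 1.05% in monocytes, 5.64% in DC and 10.07% in T cells. With 5 genes required and no thinning they were 19.6% in macrophages, 2.59% in monocytes, 12.0% in DC, 0 in neutrophils, 22.8% in T cells and 13.4% in B cells, and for mitosis genes 1.52% in monocytes. Cells of 1 class rule gave unthinned replication shares of 36.7% in T cells (4 tags) and 21.7% in B cells (5 tags). Their thinned mitosis shares were 18.2% in T cells (3 tags) and 0 in B cells (5 tags), against 18 tags in the main run. With a library left out, the unthinned replication share ranged from 12.5% to 16.2% in monocytes and 0 to 2.83% in neutrophils, and the thinned one from 11.0% to 18.65% in macrophages. Depth limits the neutrophils most, and monocytes outside library 1 were few (113 and 87 cells).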

Other observations

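Cells that met no class rule also held cells with mitosis genes, 326 of 4046 after thinning, with a median of 6.43% over tags (3.09% to 15.1%). In these 326 cells the summed fibroblast markers stood at 10220 CPM, against 8621 CPM in the other cells without a class. The summed macrophage markers stood at 2822 against 6263 CPM, those of mast cells or basophils at 398.6 against 107.4 CPM and those of erythroid cells at 217.2 against 72.5 CPM. Both values of a pair are pooled over all tags and have no replicate error. Over single tags, all cells without a class had a median of 6.36 CPM of mast cell or basophil markers (0.462 to 2084). For erythroid markers the median was 12.6 CPM (0 to 2229). The pooled values of these lists thus lie far above the typical tag.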
